A study of Mus musculus with 8 samples.

Results

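Loss of the arginine methyltransferase Carm1 was compared with its control in mouse cardiomyocytes at 3 weeks of age, across all genes that passed a filter on low counts. The comparison takes 4 of the 8 libraries of the series: 2 labelled Carm1 KO at 3w and 2 labelled Carm1 control at 3w. All carry the genotype Carm1fl/fl, in which loxP sites flank part of Carm1, on both alleles. KO mice received adeno-associated virus serotype 9 carrying Cre recombinase (AAV9-Cre), and control mice the same serotype carrying GFP (AAV9-GFP), at postnatal day 3 for the replicate 1 libraries and postnatal day 4 for the replicate 2 libraries, as labelled. The labelled days run on from 1 to 4 with age and replicate in each genotype, so whether they are true days is uncertain. Of 54752 genes in the deposited table, 14665 had enough counts to be tested (edgeR's filterByExpr, minimum count 10). Per the labels' protocols each heart was a mosaic of infected and uninfected cells, and cardiomyocytes were isolated on a Langendorff perfusion system. No sorting step is described, no group received Cre without floxed alleles, and no source used here names the promoter that drove Cre.

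Carm1 methylates arginines of histone H3 and of many other proteins, and acts as a coactivator of transcription factors. Around birth and in the first weeks of life heart muscle cells stop dividing, exchange fetal for adult isoforms of contractile proteins, build T-tubules and calcium release units, and multiply their mitochondria as they turn from glucose to fatty acids. The PGC-1 coactivators, the nuclear receptors of the ERR and PPAR families, and thyroid hormone receptors are known to drive the metabolic part of that change.

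Total counts at 3w were 53671626 and 37293627 in control and 30912152 and 31325805 in KO. The mitochondrial genome gave 46.8 and 47.8% of the counts in control and 44.8 and 44.9% in KO. The labels name no animals. The different injection days of the 2 libraries of a group would, if taken as written, mean different animals, but the spread behind the p-values may be technical. Transcripts from 4 Y-linked genes (Ddx3y, Eif2s3y, Kdm5d and Uty) were present in both control libraries (6765 and 4814 counts) and near absent in both KO libraries (3 and 2 counts), so that loss of Carm1 and presence of Y-linked transcripts cannot be told apart at 3w. Their X-linked partners were higher in KO: Kdm5c, a histone demethylase, at 0.85 ± 0.045 on the log2 scale (± SE), Eif2s3x, a translation initiation factor, at 0.74 ± 0.059, Kdm6a, another histone demethylase, at 0.70 ± 0.066 and Ddx3x, an RNA helicase, at 0.62 ± 0.035. At 1w the Y-linked transcripts ran the other way, present in KO (5025 and 4282 counts) and near absent in control (1 and 0 counts). Values of KO against control at 1w (labelled with virus at postnatal days 1 and 2), from 4 other libraries, are therefore set beside the values at 3w below.

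At 3w, 3577 genes were higher in KO (24.4% of those tested) and 3635 lower (24.8%) at an adjusted p under 0.05, by the quasi-likelihood test of edgeR, with Benjamini-Hochberg adjustment over all genes tested; "rose" and "fell" below mean called by this test. The median log2 fold change over all tested genes was 0.01. Both KO libraries lay clear of both control libraries for 3561 of the genes that rose and 3627 of those that fell. These genes were picked by a test on the same libraries, and the share without overlap among all tested genes is not given here. The lack of overlap is therefore not separate support for the calls. Levels are counts scaled to library size (CPM, counts relative to the scaled library total), first the 2 control libraries and then the 2 KO libraries. For every gene said below to rise or fall whose CPM values are printed, the groups do not overlap.

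The rises and falls were spread unequally over expression levels. Of 3240 genes with a mean under 1 CPM, 21.9% rose and 3.9% fell, with a median log2 fold change of 0.39. Of 930 genes between 100 and 1000 CPM, 20.6% rose and 60.5% fell (median -0.17), and of 77 genes over 1000 CPM 4 rose and 62, or 80.5%, fell (median -0.34). Counts for lists of abundant genes, such as those of the respiratory chain and the sarcomere, have to be read against these shares as well as against those of all genes. Of the called genes 1113 were at least 2-fold higher and 277 at least 2-fold lower. Most of the former were of low level, 603 of them under 1 CPM and 415 from 1 to 10 CPM. From 100 to 1000 CPM 8 genes were at least 2-fold higher and 15 lower.

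**Figure D1:**
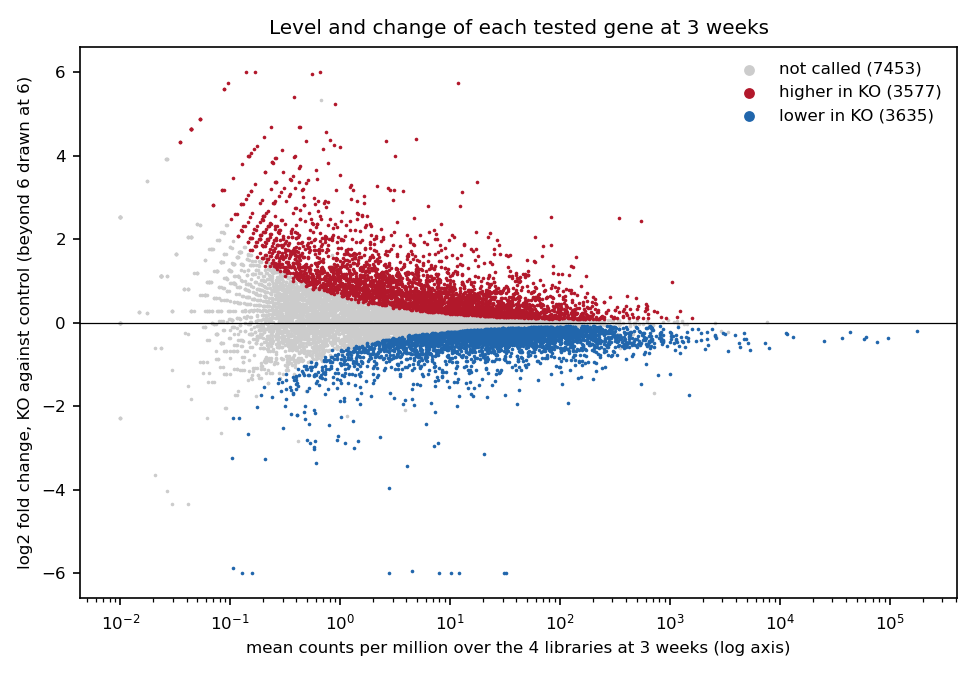
Mean level over the 4 libraries at 3w (CPM, log axis) against the log2 ratio of KO over control for each of the 14665 tested genes, with values beyond 6 drawn at 6. Red points are the 3577 genes higher in KO and blue points the 3635 lower. Red points spread widest at low levels, and at over 1000 CPM 62 of 77 genes are blue.

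Carm1 (ENSMUSG00000032185; chromosome 9, 21546894 to 21592623, plus strand, GRCm38) stood at 39.9 and 39.3 CPM in control and 17.3 and 17.8 CPM in KO, a log2 fold change of -1.17 ± 0.060 (adjusted p = 1.1e-25). The count is over the whole gene and includes cells without virus, and no source used here says which exons are floxed. Of the other 7 tested protein arginine methyltransferases, 2 rose and 1 fell. Prmt2, which also methylates histone H3, was at 9.94 and 8.52 CPM in control and 14.2 and 14.1 CPM in KO (0.60 ± 0.090), and Prmt3, which methylates a ribosomal protein, was at 6.25 and 5.94 CPM in control and 8.83 and 7.495 CPM in KO (0.42 ± 0.11). Without KO replicate 1, Prmt3 no longer passed (adjusted p = 0.086). At 1w Prmt2 had moved the other way (-0.28 ± 0.079), and its effects at the ages differed (adjusted p = 1.3e-08).

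Most of the regulators of mitochondrial and fuel genes that changed were lower in KO. Of 23 tested PGC-1, ERR and PPAR regulators and their partners 13 fell and 3 rose (median log2 fold change -0.19). Nrip1, a corepressor of nuclear receptors, fell from 31.9 and 33.6 to 19.2 and 19.1 CPM (-0.77 ± 0.062). Lpin1, a phosphatase of lipid synthesis that also acts as a PGC-1 partner, was at 279 and 268 CPM in control and 179.5 and 182 CPM in KO (-0.60 ± 0.034). Pprc1, the PGC-1 relative that serves growth, rose, at 11.4 and 11.4 CPM in control and 19.1 and 18.2 CPM in KO (0.71 ± 0.077). Ppargc1a, the PGC-1 of oxidative tissues, was at 216 and 226 CPM in control and 123 and 130.4 CPM in KO. Its fall at 3w (-0.80 ± 0.035) was smaller than that at 1w (-1.66 ± 0.035; adjusted p of the difference 7e-23), and so was that of Lpin1 (-1.02 ± 0.036 at 1w, adjusted p of the difference 1e-10). The ERR receptors Esrra and Esrrg and the PPAR receptor Ppara were among the 7 that did not pass.

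The nuclear subunits of the respiratory chain were lower almost without exception. Over complexes I to IV and the ATP synthase, 72 of 77 tested subunits fell and 0 rose, with a median log2 fold change of -0.44 and a range of -0.83 to 0.11. The 5 that did not pass were Atp5g1, Atpif1, Cox6a1, Cox8a and Uqcrq. Their mean levels ran from 42.8 to 5140.0 CPM, with 59 of them between 100 and 1000 CPM, where 60.5% of all genes fell, and 5 above. At 1w 52 of the 77 fell (20.0% of all genes did) with a median of -0.15, and the effect at 3w was below that at 1w for 59 of them, against 17.9% of all genes.

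Within complex I, which takes electrons from NADH, all 35 tested subunits fell (median -0.44). Ndufa12, an accessory subunit, fell most and stood at 99.2 and 95.5 CPM in control and 52.6 and 56.8 CPM in KO (-0.83 ± 0.044, adjusted p = 3.8e-25). Ndufb10, in the membrane arm, was at 471 and 486 CPM in control and 321 and 318 CPM in KO (-0.58 ± 0.033). At 1w Ndufb10 had not passed (-0.03 ± 0.033). In complexes II and III with cytochrome c 13 of 14 fell (median -0.45), for example the Rieske iron-sulphur protein Uqcrfs1 at 596 and 614 CPM in control and 399 and 406 CPM in KO (-0.59 ± 0.031) and Uqcrb at 453 and 466 CPM in control and 299 and 306 CPM in KO (-0.60 ± 0.031). In complex IV 10 of 12 fell (median -0.46), among them Cox7c (-0.61 ± 0.059) and Ndufa4 (-0.53 ± 0.031). Of 16 ATP synthase subunits and partners 14 fell (median -0.41), including Atp5k, which holds synthase dimers together, at 307 and 336 CPM in control and 208 and 193 CPM in KO (-0.68 ± 0.062) and Atp5j at 539 and 533 CPM in control and 390.5 and 376 CPM in KO (-0.48 ± 0.031). The list medians of the complexes thus lay between -0.46 and -0.41.

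Genes of mitochondrial translation were lower as well. Of 71 tested mitochondrial ribosomal proteins 61 fell and 1, Mrps12, rose (median -0.31). Mrps35 of the small subunit was at 92.6 and 96.7 CPM in control and 51.4 and 54.0 CPM in KO (-0.84 ± 0.045, adjusted p = 6.4e-25), Mrps5 at 54.0 and 54.4 CPM in control and 33.4 and 34.7 CPM in KO (-0.67 ± 0.051) and Mrpl42 of the large subunit at 293 and 315 CPM in control and 199 and 194 CPM in KO (-0.63 ± 0.034). At 1w only 15 had fallen and 9 had risen (median -0.03; 23.0% of all genes rose at 1w), and the effect at 3w was lower than at 1w for 49 and higher for 1, against 17.9% and 17.6% of all genes. Most of these genes lie between 10 and 100 CPM, where 37.2% of all genes fell.

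**Figure D2:**
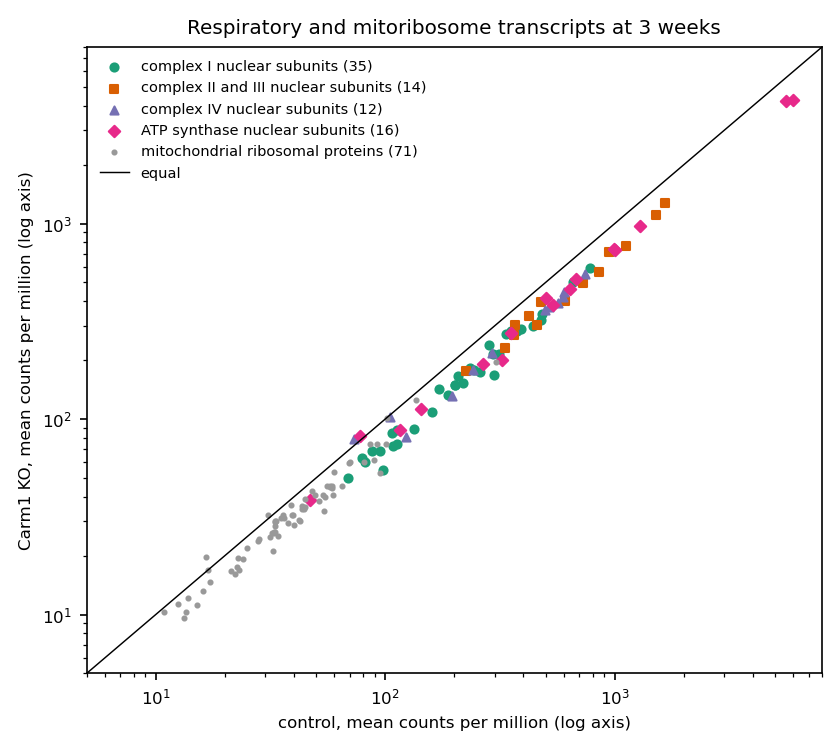
Mean CPM in control (x, log axis) and KO (y, log axis) at 3w for each tested nuclear subunit of the respiratory complexes and each mitochondrial ribosomal protein, with the line of equality. Nearly all of the 77 respiratory subunits lie below the line, and 61 of the 71 ribosomal proteins were called lower.

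Coenzyme Q synthesis, which makes the mobile electron carrier of the inner membrane, fell in 12 of 13 genes (median -0.37): Coq7, a hydroxylase, stood at 69.5 and 74.7 CPM in control and 45.8 and 46.5 CPM in KO (-0.64 ± 0.047) and Coq10b, a coenzyme Q binding protein, at 28.4 and 29.0 CPM in control and 15.5 and 15.8 CPM in KO (-0.87 ± 0.066). Of 37 respiratory chain assembly factors 24 fell and 3 rose (median -0.24). Cox18, which inserts a complex IV subunit into the membrane, was at 8.15 and 7.60 CPM in control and 4.55 and 4.46 CPM in KO (-0.81 ± 0.11), having risen at 1w (0.88 ± 0.11). Cox19, which serves copper delivery to complex IV, was higher, at 18.5 and 17.0 CPM in control and 28.8 and 29.4 CPM in KO (0.71 ± 0.064). Protein import fell in 14 of 23 and rose in 1 (median -0.19), with the motor subunit Timm44 at 135 and 138 CPM in control and 112 and 108 CPM in KO (-0.31 ± 0.038). The genes of fusion, fission and cristae fell in 11 of 15 (median -0.18), for example the inner membrane fusion GTPase Opa1 at -0.26 ± 0.035.

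The SLC25 carriers, which pass metabolites through the inner membrane, split: of 41 tested 19 fell and 10 rose (median -0.23). The ADP/ATP carrier Slc25a4, one of the most abundant nuclear transcripts here, was at 6419 and 6703 CPM in control and 4234 and 4167 CPM in KO (-0.64 ± 0.026). Slc25a23, a calcium-dependent carrier of ATP and phosphate, rose from 22.7 and 21.8 to 39.8 and 39.4 CPM (0.83 ± 0.058). Slc25a40, a glutathione carrier, fell (-0.73 ± 0.12). Both directions were seen again at 1w, with 7 higher and 11 lower, and 0 members were called in opposite directions.

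Of 17 genes that bring fatty acids into the cell and store them 14 fell and 1 rose (median -0.37). Lpl, the lipase that frees fatty acids from circulating lipoproteins, was at 4937 and 4917 CPM in control and 3502 and 3513 CPM in KO (-0.49 ± 0.024). Angptl4, a secreted inhibitor of that lipase and a PPAR target, was at 15.8 and 16.2 CPM in control and 5.83 and 6.03 CPM in KO (-1.43 ± 0.086, adjusted p = 2.1e-22) and had not passed at 1w (-0.06 ± 0.048; adjusted p of the difference 3.1e-18). Dgat2, which makes triglyceride, was at 357 and 340.4 CPM in control and 166 and 169 CPM in KO (-1.06 ± 0.034), beside -0.98 ± 0.039 at 1w (difference -0.07 ± 0.052, adjusted p = 0.29). Pnpla2, which breaks triglyceride down, was at 586 and 557 CPM in control and 338 and 319 CPM in KO (-0.80 ± 0.033). Dgat1, another enzyme of triglyceride synthesis, and Abhd5, the coactivator of Pnpla2, did not pass (-0.15 ± 0.082 and 0.03 ± 0.055). Acot1, a thioesterase with close copies in the genome, fell by 0.93 on the log2 scale.

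Branched-chain amino acid and ketone catabolism fell in 17 of 21 genes and rose in 1 (median -0.40). Dbt, the core subunit of the branched-chain dehydrogenase, stood at 60.8 and 65.6 CPM in control and 38.0 and 39.3 CPM in KO (-0.71 ± 0.050) and the leucine pathway hydratase Auh at 87.1 and 89.3 CPM in control and 55.0 and 56.5 CPM in KO (-0.66 ± 0.043). Ivd, a dehydrogenase earlier in the leucine pathway, fell to 165 and 158 CPM from 252 and 236 CPM (-0.60 ± 0.036), after a rise at 1w (0.44 ± 0.042; adjusted p of the difference 1.3e-24).

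Of 30 glucose genes 16 fell and 5 rose (median -0.14). The muscle hexokinase Hk2 was at 303 and 315 CPM in control and 189.6 and 189.7 CPM in KO (-0.70 ± 0.034), while Hk1, the hexokinase of most tissues, was among the 5 that rose. Per kilobase of annotated exon, Hk2 went from 50.8 and 52.8 to 31.8 and 31.8 CPM and Hk1 from 32.5 and 33.4 to 41.1 and 40.5 CPM. By this measure Hk1 stood below Hk2 in control and above it in KO. The length joins the exons of all annotated transcripts (8532 bases for Hk1 and 5969 for Hk2), and the order in control depends on it. Ldhb, the lactate dehydrogenase of oxidative muscle, fell (-0.58 ± 0.028), as did Ldha by less (-0.12 ± 0.030), and Ldhb stayed above Ldha per kilobase (698 and 698 against 147 and 146 CPM in KO). Slc2a12, a glucose transporter, was at 7.75 and 7.56 CPM in control and 4.27 and 3.42 CPM in KO (-0.996 ± 0.13). Hk2 had risen at 1w (0.28 ± 0.037), and its effects differed between the ages (adjusted p = 2.3e-25).

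Creatine kinases moved in opposite directions. Ckm, the muscle enzyme, was at 2552 and 2496 CPM in control and 1682 and 1605 CPM in KO (-0.62 ± 0.027) and its mitochondrial partner Ckmt2 at 2535 and 2710.4 CPM in control and 1827 and 1797 CPM in KO (-0.53 ± 0.028). Ckb, the brain isoform that is high in fetal heart, was at 39.1 and 36.8 CPM in control and 67.3 and 61.4 CPM in KO (0.76 ± 0.050), beside 0.83 ± 0.049 at 1w (adjusted p of the difference 0.48). Per kilobase Ckm remained the higher of the pair in KO (577 and 551 against 23.2 and 21.2 CPM). Of the 12 phosphagen genes 4 rose and 4 fell.

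Lipid synthesis and one-carbon genes showed mixed calls. Fasn, the fatty acid synthase, was at 29.9 and 28.9 CPM in control and 49.7 and 49.1 CPM in KO (0.75 ± 0.050), whereas Fdft1, the squalene synthase of the cholesterol pathway, was at 29.5 and 30.7 CPM in control and 20.2 and 20.8 CPM in KO (-0.55 ± 0.063). Of 21 genes of both pathways 6 rose and 4 fell. The serine and one-carbon list had 5 higher and 3 lower of 10. In it, Aldh1l2, a mitochondrial folate enzyme, was at 21.5 and 21.6 CPM in control and 10.8 and 13.1 CPM in KO (-0.85 ± 0.075) and Shmt1, a cytosolic one, at 4.29 and 4.28 CPM in control and 7.49 and 7.32 CPM in KO (0.79 ± 0.11).

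Antioxidant genes were divided almost evenly, with 10 higher and 12 lower of 25. Gpx3, the secreted glutathione peroxidase, was at 69.7 and 69.7 CPM in control and 208 and 206 CPM in KO (1.57 ± 0.037, adjusted p = 2e-43) and had risen at 1w too (1.27 ± 0.038). Hmox1, a haem oxygenase induced by oxidative stress, was at 4.12 and 3.67 CPM in control and 8.83 and 8.09 CPM in KO (1.10 ± 0.12). Mt1, a metal-binding metallothionein with a close relative in Mt2, was at 283 and 252 CPM in control and 141 and 137 CPM in KO (-0.95 ± 0.079). The mitochondrial enzymes Sod2 and Prdx3 were among the 12 that fell.

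**Figure D3:**
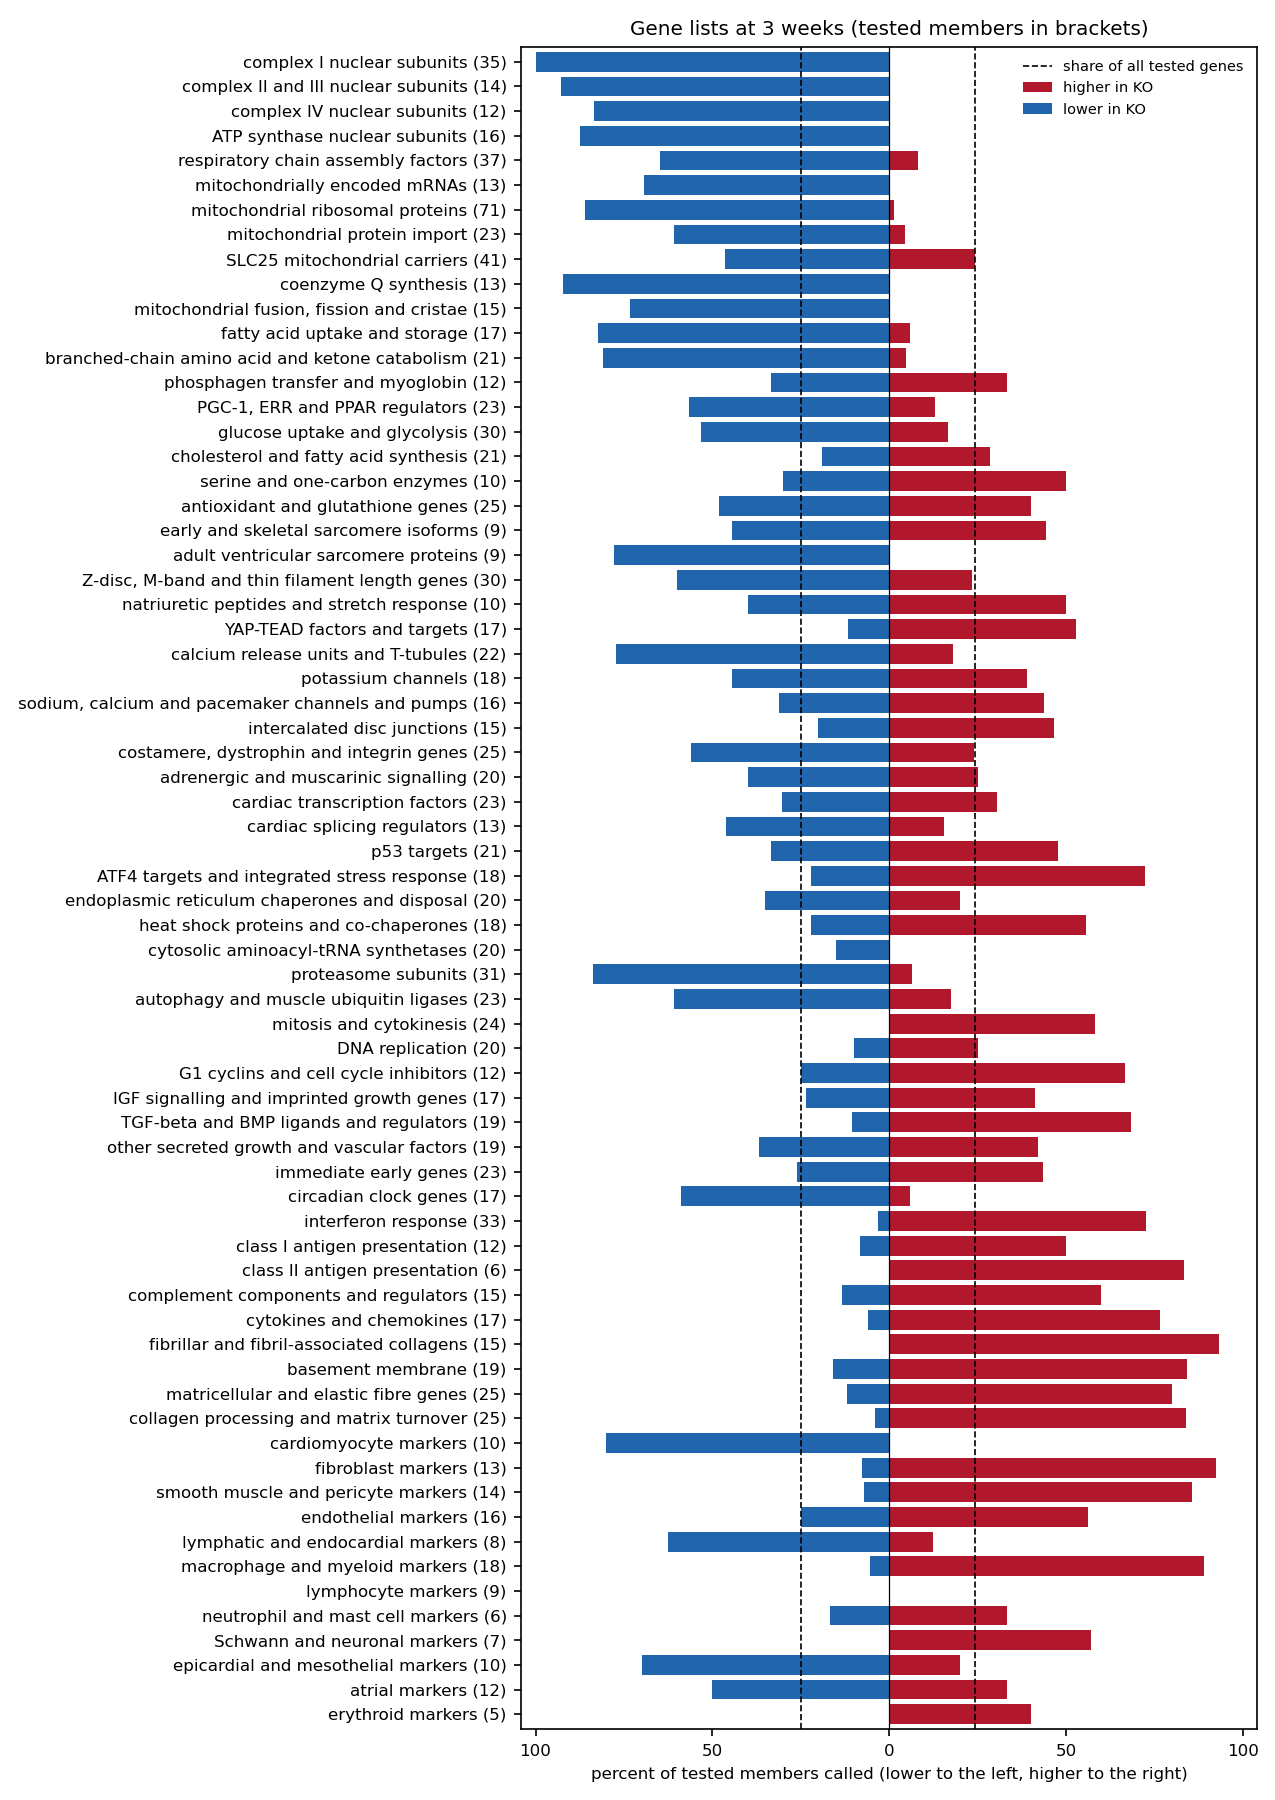
Percent of the tested members of each gene list that were called lower (blue, left) or higher (red, right) in KO at 3w, with the number of tested members in brackets. Dashed lines mark the shares of all tested genes, 24.8% lower and 24.4% higher. Respiratory, coenzyme Q and mitoribosome lists reach furthest left, and collagen, fibroblast and macrophage lists furthest right.

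Of 9 adult ventricular sarcomere genes 7 fell and 0 rose (median -0.28). Nearly all lie over 1000 CPM, where 80.5% of all genes fell with a median of -0.34, so this count is near that of genes of their level. Troponin I of the adult heart, Tnni3, was at 5012 and 5404 CPM in control and 3537 and 3459 CPM in KO (-0.57 ± 0.035). Troponin T, Tnnt2, was at 8100.2 and 8933 CPM in control and 6042 and 6055 CPM in KO (-0.49 ± 0.032). Tpm1, the cardiac tropomyosin, fell by 0.26 on the log2 scale and the light chain Myl3 by 0.40. Several other abundant sarcomere genes, Actc1, Tnnc1, Acta1 and Xirp1, were listed at 0 in all 8 libraries, as were B2m, the light chain of class I antigens, and the complex IV subunit Cox4i1. Genes listed at 0 there are read as not measured.

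Tnni1, the slow skeletal troponin I that the fetal heart uses before Tnni3, was at 0.501 and 0.247 CPM in control and 3.60 and 4.22 CPM in KO (3.28 ± 0.18). At 1w it had stood at a mean of 529.6 CPM in control and 318 CPM in KO (-0.74 ± 0.034). Even in KO at 3w its level per kilobase (1.00 and 1.17 CPM) was far below that of Tnni3 (1715 and 1677 CPM). The early and skeletal list as a whole had 4 members higher and 4 lower of 9. The 4 that fell included the atrial light chains Myl7 and Myl4.

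Of 30 genes of the Z-disc, the M-band and thin filament length control 18 fell and 7 rose (median -0.11). Many of them lie between 100 and 1000 CPM, where 60.5% of all genes fell and 20.6% rose (median -0.17). These counts are near those shares. Myot, a Z-disc protein that binds actinin, was at 18.4 and 18.5 CPM in control and 5.37 and 5.58 CPM in KO (-1.75 ± 0.10). Fhl2, an adaptor that ties metabolic enzymes to the sarcomere, was at 1382 and 1329 CPM in control and 858 and 863 CPM in KO (-0.65 ± 0.028), and the giant-protein relative Obsl1 at 126 and 129 CPM in control and 80.6 and 75.4 CPM in KO (-0.71 ± 0.041). Neither Fhl2 (0.05 ± 0.028) nor Obsl1 (-0.03 ± 0.041) had passed at 1w.

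Among stretch-responsive genes Ankrd1 had the largest gain in CPM of all nuclear genes. Ankrd1 (ENSMUSG00000024803; chromosome 19, 36111961 to 36120099, minus strand, GRCm38), a titin-binding repressor that overload induces, was at 165 and 172 CPM in control and 905 and 925 CPM in KO (2.44 ± 0.031, adjusted p = 1.1e-57). At 1w it had fallen slightly (-0.15 ± 0.029), and its effects differed between the ages by 2.59 ± 0.042 on the log2 scale. Nppb, a natriuretic peptide, was at 77.9 and 71.4 CPM in control and 190.5 and 187 CPM in KO (1.33 ± 0.038). Rcan1, an inhibitor and target of calcineurin, was at 58.8 and 59.3 CPM in control and 131 and 131 CPM in KO (1.15 ± 0.040). For Nppa, another natriuretic peptide, 61.5% of the exon bases lie within exons of a gene on the opposite strand, and no source used here states how the counting treated strand. Of 10 genes of this list 5 rose and 4 fell.

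Genes linked to the YAP coactivators and their TEAD partner factors, which read tension and contact, had 9 of 17 higher and 2 lower (median 0.38). Ccn1, a secreted matrix-associated protein, was at 135 and 132 CPM in control and 221 and 218 CPM in KO (0.71 ± 0.035), a smaller rise than at 1w (1.54 ± 0.042; adjusted p of the difference 5.6e-20). Axl, a receptor kinase, was at 17.9 and 15.9 CPM in control and 33.7 and 32.9 CPM in KO (0.96 ± 0.061).

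The letters CATTCC, the core that TEAD factors are known to bind, were searched on both strands in the 250 bases before each RefSeq start (GRCm38.p6). They stood in 12 of the 24 starts of the tested stretch and YAP-TEAD genes, against 11.1% of 13540 starts of all tested genes. The YAP-TEAD list was made of genes already linked to these factors, so its share of matches is not independent of that link. Overlapping windows of Wwtr1 hold the same match and are counted separately. Matches are shown in capitals for 3 members that rose, each read 5′ to 3′ on the strand of its gene. The windows are chr19:36119845-36120094, minus strand, for Ankrd1, chr4:147985650-147985899, plus strand, for Nppb and chr3:145649986-145650235, minus strand, for Ccn1.
Ankrd1: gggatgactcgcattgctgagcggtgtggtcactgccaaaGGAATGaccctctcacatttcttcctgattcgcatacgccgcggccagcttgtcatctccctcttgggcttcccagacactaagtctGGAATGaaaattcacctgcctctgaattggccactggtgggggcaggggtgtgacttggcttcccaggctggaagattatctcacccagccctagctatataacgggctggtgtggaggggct
Nppb: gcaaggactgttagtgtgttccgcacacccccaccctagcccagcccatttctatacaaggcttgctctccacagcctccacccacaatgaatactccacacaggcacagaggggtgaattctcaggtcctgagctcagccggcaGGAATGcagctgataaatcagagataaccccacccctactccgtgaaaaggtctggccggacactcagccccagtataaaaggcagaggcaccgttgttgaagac
Ccn1: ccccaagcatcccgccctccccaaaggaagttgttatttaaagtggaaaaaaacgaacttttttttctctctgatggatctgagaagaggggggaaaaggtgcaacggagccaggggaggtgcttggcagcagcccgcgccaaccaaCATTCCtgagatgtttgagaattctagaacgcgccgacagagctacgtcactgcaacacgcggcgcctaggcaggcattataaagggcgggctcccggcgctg
Ankrd1 has 2 matches and Nppb and Ccn1 1 each. Of the 11 members with a match 8 rose, 1 fell and 2 did not pass (Amotl2 and Wwtr1). The member that fell was Myh7, the slow myosin (-0.49 ± 0.039). With or without a match, 5 of 10 stretch genes and 9 of 17 YAP-TEAD genes rose. A match describes the letters only, and binding was not measured.

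**Figure D4:**
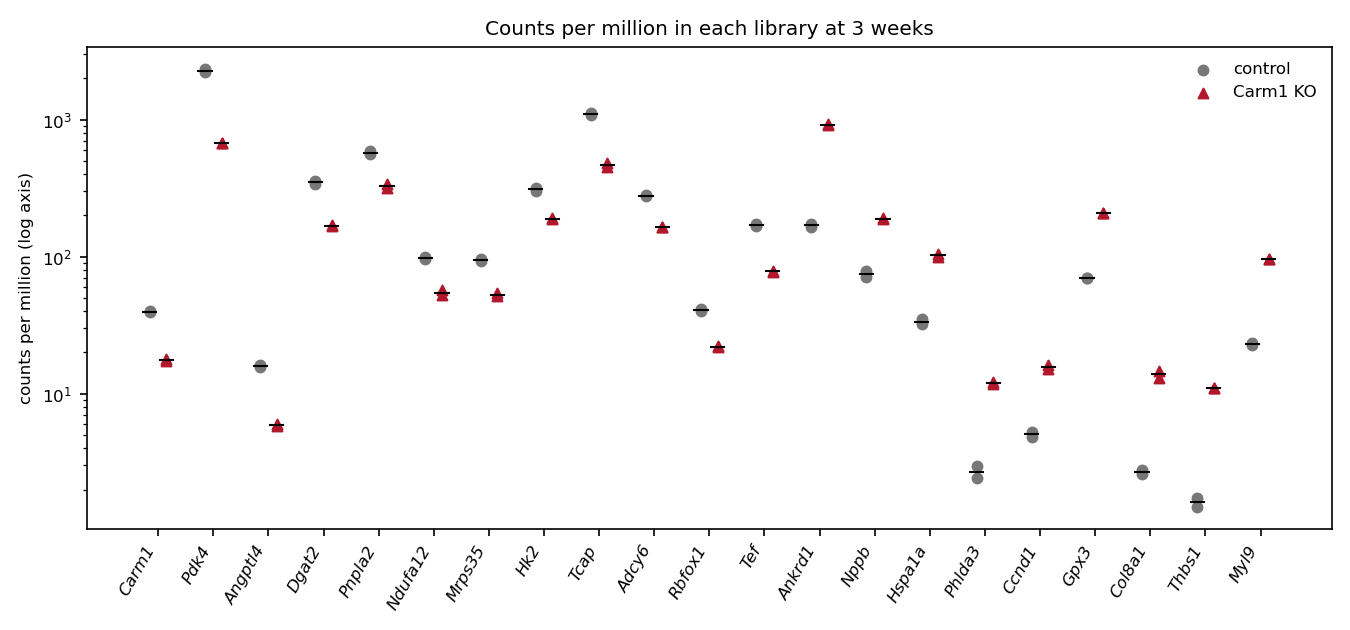
CPM (log axis) of 21 genes in each of the 2 control libraries (grey circles) and 2 KO libraries (red triangles) at 3w, with the group means as bars. The 12 genes on the left, from Carm1 to Tef, are lower in KO and the 9 on the right, from Ankrd1 to Myl9, higher, and the groups overlap for none of the 21.

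Calcium release units and T-tubules fell in 17 of 22 genes and rose in 4 (median -0.25). Many of these genes lie over 100 CPM. Of all genes between 100 and 1000 CPM 60.5% fell, and of those over 1000 CPM 80.5%. The calcium pump of the sarcoplasmic reticulum, Atp2a2, was at 14852 and 14511 CPM in control and 11569 and 11671 CPM in KO (-0.34 ± 0.022). The potassium counter-ion channel Tmem38a was at 752 and 737 CPM in control and 519.9 and 511 CPM in KO (-0.53 ± 0.030), and the pore of the L-type calcium channel, Cacna1c, at 345 and 333 CPM in control and 245 and 245 CPM in KO (-0.47 ± 0.032). Atp2a2 and Cacna1c had fallen at 1w too (-0.27 ± 0.022 and -0.40 ± 0.032), whereas Tmem38a had been slightly higher (0.08 ± 0.031).

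Ion channels changed in both directions. Of 18 potassium channel genes 8 fell and 7 rose. Kcnj3, a subunit of the acetylcholine-gated channel that is higher in atria than in ventricles, was at 59.2 and 62.1 CPM in control and 31.2 and 32.7 CPM in KO (-0.92 ± 0.053) after a rise at 1w (0.67 ± 0.077). Kcnj8, a subunit of the ATP-sensitive channel that pericytes and smooth muscle also express, was at 4.58 and 3.53 CPM in control and 7.03 and 7.04 CPM in KO (0.76 ± 0.12). Of the 18 genes 10 were called in opposite directions at the 2 ages. The pacemaker channel Hcn4 was at 11.3 and 12.6 CPM in control and 5.54 and 4.08 CPM in KO (-1.30 ± 0.11), and its relative Hcn2 at 54.9 and 55.6 CPM in control and 80.6 and 72.3 CPM in KO (0.47 ± 0.047). Cacna1g, a T-type calcium channel of early heart and conduction tissue, was at 40.3 and 35.9 CPM in control and 74.1 and 75.2 CPM in KO (0.96 ± 0.052). Of 16 sodium, calcium and pacemaker genes 7 rose and 5 fell.

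Junction and attachment genes included several abundant transcripts that rose, against the trend of abundant genes. Of 15 intercalated disc genes 7 rose and 3 fell. Desmoplakin, Dsp, which anchors intermediate filaments at desmosomes, was at 1095 and 1119 CPM in control and 1337 and 1341 CPM in KO (0.27 ± 0.027). The adherens junction proteins Ctnna1 and Ctnnb1 were at 0.27 ± 0.028 and 0.32 ± 0.038, and the scaffold Tjp1 at 81.4 and 83.9 CPM in control and 112 and 113 CPM in KO (0.45 ± 0.038). The gap junction protein Gja1 fell, at 358 and 364 CPM in control and 296 and 291 CPM in KO (-0.30 ± 0.031). At 1w 0 of the 15 had risen and 10 had fallen, and the effect at 3w lay above that at 1w for 9 and below it for 0.

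In the costamere, which ties the sarcomere to the membrane, 14 of 25 genes fell and 6 rose. Many of them lie between 100 and 1000 CPM, where 60.5% of all genes fell and 20.6% rose. These counts are near those shares. The sarcoglycan Sgca was at 166 and 160.1 CPM in control and 105 and 98.6 CPM in KO (-0.68 ± 0.039). Utrophin, Utrn, the relative of dystrophin, rose from 60.2 and 60.2 to 90.1 and 95.3 CPM (0.62 ± 0.042), and the syntrophin Sntb1 from 19.8 and 21.4 to 48.8 and 48.7 CPM (1.25 ± 0.052). Talin 1, Tln1, the integrin adaptor of most cells, was at 0.71 ± 0.036, while Tln2 was among those lower.

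Adrenergic signalling fell in 8 of 20 genes and rose in 5. Adcy6, a major cardiac adenylyl cyclase, was at 275 and 279.8 CPM in control and 166 and 166 CPM in KO (-0.74 ± 0.033). The muscarinic receptor Chrm2 was at 163 and 167 CPM in control and 129.8 and 124 CPM in KO (-0.38 ± 0.038), a smaller fall than at 1w (-0.82 ± 0.048; adjusted p of the difference 2.2e-08).

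Cardiac transcription factors were evenly split at 3w, 7 higher and 7 lower of 23, where 17 had fallen and 2 had risen at 1w. Of the 23, 13 had a higher effect at 3w than at 1w and 5 a lower one, and 9 were called in opposite directions. Foxo3, a factor that limits growth and drives atrophy genes, was at 215 and 207 CPM in control and 133 and 134 CPM in KO (-0.66 ± 0.036), Irx5 at -0.90 ± 0.12 and Hey2, a Notch-regulated repressor of the ventricle, at -0.56 ± 0.11. Of 13 splicing regulators 6 fell and 2 rose. Rbfox1, which directs adult splicing in heart, was at 41.5 and 40.5 CPM in control and 21.9 and 22.2 CPM in KO (-0.90 ± 0.057). Ptbp1, which represses adult exons, was at 4.32 and 4.52 CPM in control and 6.53 and 6.10 CPM in KO (0.52 ± 0.13).

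Output genes of the circadian clock were lower. Of 17 clock genes 10 fell and 1 rose (median -0.25). Tef, a clock-controlled transcription factor, was at 173 and 167 CPM in control and 77.8 and 78.2 CPM in KO (-1.12 ± 0.039, adjusted p = 3.9e-34) and its relative Dbp at 20.7 and 21.2 CPM in control and 12.7 and 11.5 CPM in KO (-0.79 ± 0.084). The repressor Cry2 was at 19.9 and 17.6 CPM in control and 9.29 and 10.8 CPM in KO (-0.91 ± 0.084). No source used here gives the time of day at which hearts were taken, and its part in these values was not tested. Tef and Dbp had not passed at 1w (-0.05 ± 0.046 and -0.12 ± 0.11).

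Stress genes did not move as a block. Of 21 p53 targets 10 rose and 7 fell. Phlda3, an inhibitor of Akt, was at 2.98 and 2.44 CPM in control and 11.9 and 12.3 CPM in KO (2.13 ± 0.12, adjusted p = 3.8e-24) and Eda2r, a death receptor, at 3.72 and 3.50 CPM in control and 8.62 and 8.54 CPM in KO (1.24 ± 0.12). Sesn1, a sestrin that is also a Foxo target, was at 283 and 279 CPM in control and 142 and 144 CPM in KO (-0.97 ± 0.035). The rise of Phlda3 was small at 1w (0.21 ± 0.082), and that of Eda2r was a fall (-0.43 ± 0.10).

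Of 18 ATF4 targets 13 rose and 4 fell (median 0.66), with the same direction at 1w for 10 of the 13. Atf4 itself was among the 4 that fell. The summed level of the list was lower in KO, at 758.8 and 754.3 CPM in control and 643.6 and 635.4 CPM in KO. Atf3, a stress-induced repressor, was at 29.7 and 30.6 CPM in control and 66.3 and 66.1 CPM in KO (1.14 ± 0.049), beside 1.03 ± 0.049 at 1w (adjusted p of the difference 0.23). Vldlr, a lipoprotein receptor, was at 420.3 and 420.4 CPM in control and 244 and 248 CPM in KO (-0.77 ± 0.032). Of 20 genes of the endoplasmic reticulum 7 fell and 4 rose, with Dnajb9 at 52.9 and 55.4 CPM in control and 34.7 and 34.4 CPM in KO (-0.64 ± 0.052) and the chaperone Hyou1 at 30.3 and 27.5 CPM in control and 38.3 and 39.2 CPM in KO (0.41 ± 0.056). The 20 cytosolic aminoacyl-tRNA synthetases, several of which ATF4 also drives, had 0 higher and 3 lower, below the shares of all genes.

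Of 18 heat shock proteins and cochaperones 10 rose and 4 fell (median 0.13), and their summed level was 6886 and 6842 CPM in control and 6850.0 and 6798 CPM in KO. Hspa1a and Hspa1b, near-identical inducible chaperones whose reads may be shared, were at 34.9 and 32.2 CPM in control and 99.9 and 105 CPM in KO (1.61 ± 0.050) and at 34.1 and 37.3 CPM in control and 140.2 and 118 CPM in KO (1.86 ± 0.12). The cochaperone Dnajb1 was at 70.4 and 69.8 CPM in control and 179 and 181 CPM in KO (1.36 ± 0.040) and Hsp90aa1 at 67.0 and 65.5 CPM in control and 129.7 and 131 CPM in KO (0.98 ± 0.040). The 4 that fell were the small heat shock protein Hspb7 (-0.36 ± 0.025), the cochaperone Dnajb5 (-0.46 ± 0.039) and the mitochondrial chaperones Hspd1 (-0.25 ± 0.036) and Hspe1 (-0.22 ± 0.050). Dissociation of tissue can induce heat shock genes, and its part in these values was not tested.

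Genes of protein breakdown were mostly lower. Of 31 proteasome subunits 26 fell and 2 rose (median -0.23; 13 fell at 1w). The core subunits Psma2 and Psma1 were at 59.8 and 62.8 CPM in control and 43.7 and 45.9 CPM in KO (-0.45 ± 0.047) and at 90.8 and 88.1 CPM in control and 65.99 and 66.2 CPM in KO (-0.44 ± 0.041). The muscle ubiquitin ligases Trim63 and Fbxo32, Foxo targets that rise in atrophy, were at 358 and 379 CPM in control and 210.3 and 210.5 CPM in KO (-0.81 ± 0.033) and at 280.1 and 292 CPM in control and 189 and 189.7 CPM in KO (-0.59 ± 0.034). The mitophagy receptor Bnip3 was at 56.5 and 52.0 CPM in control and 29.4 and 27.9 CPM in KO (-0.93 ± 0.058). Of 23 autophagy and ligase genes 14 fell and 4 rose, the lysosomal proteins Ctsd, Ctsb and Lamp1 among those higher.

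Over the 3 cell cycle lists 27 of 56 genes rose, 5 fell and 24 did not pass. Of 24 genes of mitosis and cytokinesis 14 rose and 0 fell (median 0.71), with 17 of the 24 at a mean under 1 CPM, where rises also outnumbered falls over all genes. Of 20 DNA replication genes 5 rose and 2 fell, a share of rises near that of all genes (24.4%), with Mcm2, part of the replicative helicase, at 6.51 and 6.96 CPM in control and 12.3 and 10.6 CPM in KO (0.77 ± 0.092). Of 12 G1 genes 8 rose and 3 fell. Cyclin D1, Ccnd1, was at 5.27 and 4.84 CPM in control and 16.3 and 15.2 CPM in KO (1.63 ± 0.093, adjusted p = 2.7e-23) and cyclin D2, Ccnd2, at 77.9 and 79.3 CPM in control and 131 and 137 CPM in KO (0.77 ± 0.037). Cdk6, a kinase partner of these cyclins, was at 10.4 and 11.5 CPM in control and 18.8 and 18.5 CPM in KO (0.78 ± 0.075). The inhibitor Cdkn1b was at 39.5 and 40.8 CPM in control and 25.8 and 27.8 CPM in KO (-0.58 ± 0.057). At 1w Ccnd2 and Cdk6 had been lower in KO (-0.71 ± 0.034 and -0.25 ± 0.054). Markers of several non-muscle cell types, given below, were higher in KO as well, and their part in these rises was not tested.

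Growth factor genes gave mixed counts apart from the TGF-beta and BMP group, in which 13 of 19 rose and 2 fell (median 0.48). Tgfb2 was at 6.44 and 6.82 CPM in control and 13.2 and 13.5 CPM in KO (1.02 ± 0.094), Fstl1, a secreted BMP modulator, at 22.8 and 23.1 CPM in control and 49.7 and 49.5 CPM in KO (1.11 ± 0.048) and Ltbp4, which stores latent TGF-beta in matrix, at 83.6 and 82.0 CPM in control and 148 and 141 CPM in KO (0.80 ± 0.051). Igf1 was at 3.81 and 3.78 CPM in control and 8.44 and 8.47 CPM in KO (1.15 ± 0.11), and the binding proteins Igfbp7 and Igfbp4 at 1.01 ± 0.048 and 0.97 ± 0.093. Pdgfb, an endothelial signal to pericytes, was at 5.91 and 5.83 CPM in control and 13.5 and 13.2 CPM in KO (1.18 ± 0.091). Angpt1, a ligand of the receptor Tek, was at 22.2 and 20.8 CPM in control and 11.3 and 11.6 CPM in KO (-0.91 ± 0.079). Igf1 had been lower in KO at 1w (-0.32 ± 0.059).

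Dissociation of tissue induces immediate early genes too. Of 23 tested, 10 were higher and 6 lower. Klf4 was at 14.9 and 15.97 CPM in control and 24.3 and 24.4 CPM in KO (0.67 ± 0.067) and Fosb at 5.63 and 6.47 CPM in control and 9.92 and 9.34 CPM in KO (0.69 ± 0.10). Zfp36, which destabilises cytokine mRNAs, was at 133 and 133 CPM in control and 84.6 and 85.7 CPM in KO (-0.65 ± 0.039) and had moved the other way at 1w (0.97 ± 0.049; adjusted p of the difference 2.3e-31). The part of dissociation in these values was not tested.

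Interferon-stimulated genes were higher from low levels. Of 33 tested 24 rose and 1 fell (median 0.75). At 1w 8 had risen and 2 had fallen (median 0.20), and the effect at 3w was above that at 1w for 13 and below it for 0. Lgals3bp, a secreted glycoprotein, was at 7.87 and 8.09 CPM in control and 18.0 and 17.6 CPM in KO (1.16 ± 0.083), and Ifitm3, a membrane protein that restricts viruses, at 5.94 and 5.94 CPM in control and 11.5 and 9.52 CPM in KO (0.82 ± 0.10). Iigp1, an immunity-related GTPase, was the member that fell, at 20.5 and 21.3 CPM in control and 10.03 and 10.4 CPM in KO (-1.03 ± 0.081), and it had fallen at 1w (-1.09 ± 0.13). Both KO and control mice had received the virus capsid, with different cargo.

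The letters GAAANNGAA, found in elements that interferon-activated factors bind, stood on either strand in 33.3% of 39 starts of the interferon and class I genes, in the same window as above, against 6.0% of the 13540 starts. The interferon list was made of genes already known to respond to interferon, so its share of matches is not independent of that link. The windows of Ifit1 and Ifit3, antiviral RNA-binding proteins that neighbour each other, hold 3 matches each, shown in capitals. They were chosen after their values were seen. Isg15, an antiviral ubiquitin-like protein, has 3 matches as well and did not pass (0.215 and 0.141 CPM in control and 0.424 and 0.349 CPM in KO, adjusted p = 0.10). The windows are chr19:34640639-34640888 for Ifit1 and chr19:34583279-34583528 for Ifit3, both plus strand.
Ifit1: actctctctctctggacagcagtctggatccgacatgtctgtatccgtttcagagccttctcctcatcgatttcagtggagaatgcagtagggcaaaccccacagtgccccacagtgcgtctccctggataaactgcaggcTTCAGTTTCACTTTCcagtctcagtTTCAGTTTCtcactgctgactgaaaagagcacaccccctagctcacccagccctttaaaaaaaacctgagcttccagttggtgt
Ifit3: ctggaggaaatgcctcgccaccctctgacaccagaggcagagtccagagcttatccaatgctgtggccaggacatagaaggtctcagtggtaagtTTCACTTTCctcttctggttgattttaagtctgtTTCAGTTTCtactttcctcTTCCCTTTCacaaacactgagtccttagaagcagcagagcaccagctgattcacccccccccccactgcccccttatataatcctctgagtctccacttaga
Ifit1 was at 1.00 and 0.707 CPM in control and 2.12 and 2.23 CPM in KO (1.31 ± 0.25), and Ifit3 at 0.715 and 0.565 and at 1.34 and 1.43 CPM (1.08 ± 0.30). Of the 13 members with a match 8 rose, 0 fell and 5 did not pass (Erap1, Gbp2, Irgm1, Isg15 and Trim25). With or without a match, 24 of 33 interferon genes and 6 of 12 class I genes rose. Whether any factor bound was not measured. Other motifs were searched in the same window, each in lists picked for a known link to it. Their shares of matches are thus not independent of that link. The ERR site stood in 1 of 69 starts of respiratory subunits (1.4%, against 0.3% of all starts), and that member fell. The heat shock element stood in 2 of 23 starts of heat shock genes (8.7%, against 0.4%). The 2 members, Hspd1 and Hspe1, fell. Their windows overlap on opposite strands and hold the same stretch, which is thus counted from both sides. The CCAAT box stood in 7 of 21 starts of mitosis genes (33.3%, against 9.4%). Of its 7 members 5 rose and 2 did not pass.

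Genes of antigen presentation and complement rose more often than they fell. Of 12 class I genes 6 rose and 1 fell, with the proteasome activator Psme1 lower at 86.2 and 94.2 CPM in control and 67.0 and 65.8 CPM in KO (-0.44 ± 0.046). The summed level of the class I list was not higher in KO, at 218.1 and 227.2 CPM in control and 217.5 and 214.0 CPM in KO. Of 6 class II genes 5 rose, among them the invariant chain Cd74 at 5.53 and 4.66 CPM in control and 9.85 and 10.5 CPM in KO (0.98 ± 0.11). Of 15 complement genes 9 rose and 2, C3 and Cd59a, fell. C1qb and C1qc, subunits that macrophages make, were at 11.7 and 11.6 CPM in control and 19.6 and 19.9 CPM in KO (0.77 ± 0.079) and at 9.44 and 9.08 CPM in control and 15.1 and 15.1 CPM in KO (0.70 ± 0.085), both smaller rises than at 1w (1.76 ± 0.088 and 1.84 ± 0.10; adjusted p of the differences 6e-10 and 1e-10). Cd59a, which shields cells from complement, was at 37.3 and 36.6 CPM in control and 17.0 and 16.8 CPM in KO (-1.13 ± 0.065). Of 17 cytokines and chemokines 13 rose and 1 fell (median 1.09), 9 of the 17 with means under 1 CPM. The chemokine Cxcl12 was at 28.1 and 26.8 CPM in control and 58.0 and 58.6 CPM in KO (1.08 ± 0.049) and Il15, a cytokine that muscle makes and the member that fell, at 7.06 and 5.83 CPM in control and 4.45 and 4.15 CPM in KO (-0.60 ± 0.13).

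Matrix genes were higher across all 4 lists: 71 of 84 rose and 7 fell, with a median of 0.84. Fibrillar and fibril-associated collagens, listed together with collagens VI and VIII of other structure, rose in 14 of 15 cases (median 1.36). Col8a1, a short-chain collagen of vessels, rose by 2.37 ± 0.11 on the log2 scale (adjusted p = 4.1e-27). It was at 2.77 and 2.58 CPM in control and 14.7 and 13.1 CPM in KO. Col6a3 was at 10.9 and 11.8 CPM in control and 37.2 and 39.9 CPM in KO (1.77 ± 0.064). Of 25 matricellular and elastic fibre genes 20 rose and 3 fell (median 1.13). Thbs1, a glycoprotein that activates latent TGF-beta, was at 1.502 and 1.73 CPM in control and 10.98 and 11.1 CPM in KO (2.78 ± 0.12), Mfap4, a microfibril protein, at 3.84 and 4.10 CPM in control and 16.3 and 17.2 CPM in KO (2.09 ± 0.093) and the proteoglycan Vcan at 3.81 and 3.75 CPM in control and 12.01 and 13.4 CPM in KO (1.74 ± 0.10). Of 25 genes of collagen processing and matrix turnover 21 rose and 1 fell (median 0.61). The proteases Mmp2 and Mmp14, of which the latter activates the former, were at 13.1 and 13.5 CPM in control and 34.5 and 35.7 CPM in KO (1.41 ± 0.061) and at 7.87 and 6.11 CPM in control and 18.3 and 18.9 CPM in KO (1.38 ± 0.081).

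In the basement membrane 16 of 19 genes rose and 3 fell, and the laminins divided. Lama4, of vessels, was at 32.6 and 32.9 CPM in control and 56.6 and 55.3 CPM in KO (0.77 ± 0.045) and the linker Nid1 at 41.3 and 42.4 CPM in control and 69.9 and 68.7 CPM in KO (0.73 ± 0.043). Lama5 was at 178 and 174 CPM in control and 96.1 and 94.4 CPM in KO (-0.89 ± 0.038), and Lamb2 and Lama2, the laminin chains of adult muscle, were the others that fell. Col4a1 stood among the largest gains in CPM, at 313 and 319.7 CPM in control and 493 and 485 CPM in KO (0.63 ± 0.032).

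Markers of other cell types moved in the same libraries. In bulk RNA, fewer cells of a type and less RNA per cell cannot be told apart, and the part of these markers in the changes above was not tested. Cardiomyocyte markers summed to 77690.0 and 81760.0 CPM in control and 63640.0 and 62940.0 CPM in KO, with 8 of 10 lower (median -0.29). Nearly all of them lie over 1000 CPM, where 80.5% of all genes fell with a median of -0.34. Their count is thus near that of genes of their level. Fibroblast markers summed to 443 and 449.8 CPM in control and 843 and 854 CPM in KO, with 12 of 13 higher and 1 lower (median 0.87). Smooth muscle and pericyte markers summed to 1297 and 1254 CPM and to 2147 and 2149 CPM, with 12 of 14 higher and 1 lower (median 1.04). Macrophage and myeloid markers summed to 93.7 and 93.2 CPM and to 139 and 144 CPM, with 16 of 18 higher and 1 lower (median 0.75). Each of these sums lay clear of the other group.

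Within these lists the levels differed. Lum, a fibroblast proteoglycan, was at 9.35 and 8.44 CPM in control and 25.8 and 28.4 CPM in KO (1.60 ± 0.074), while Smoc2, a matricellular gene of fibroblasts, was at 35.1 and 35.0 CPM in control and 13.3 and 11.8 CPM in KO (-1.48 ± 0.069). The pericyte receptor Pdgfrb was at 14.7 and 13.4 CPM in control and 31.8 and 29.9 CPM in KO (1.12 ± 0.064) and had not passed at 1w (0.01 ± 0.049). Myl9, the smooth muscle light chain, was at 22.8 and 23.4 CPM in control and 96.7 and 96.0 CPM in KO (2.06 ± 0.045, adjusted p = 9.7e-45). The macrophage receptor Csf1r was at 13.4 and 13.0 CPM in control and 20.5 and 20.7 CPM in KO (0.65 ± 0.073). For macrophage markers the effect at 3w was below that at 1w in 14 of 18, and above it in 0.

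Endothelial markers gave 9 higher and 4 lower of 16, summing to 664 and 647 CPM in control and 681 and 709.8 CPM in KO. Cdh5, the cadherin of endothelial junctions, was at 81.5 and 79.9 CPM in control and 111 and 109.7 CPM in KO (0.45 ± 0.036). Of 8 lymphatic and endocardial markers 5 fell and 1 rose, with Lyve1 at 14.3 and 13.3 CPM in control and 10.2 and 10.2 CPM in KO (-0.44 ± 0.092). Epicardial markers fell in 7 of 10 and rose in 2 (30.0 and 29.0 CPM in sum in control, 24.5 and 22.8 CPM in KO), with the mesothelial Upk3b at 9.18 and 8.48 CPM in control and 4.84 and 4.60 CPM in KO (-0.91 ± 0.11). The defining lymphocyte markers summed to 1.33 and 0.954 CPM in control and 1.20 and 1.01 CPM in KO, and 0 of 9 passed by edgeR or by DESeq2, with 2 at an unadjusted p under 0.05. The beta-globin genes Hbb-bs and Hbb-bt, close copies of each other, were higher in KO (0.47 ± 0.055 and 0.52 ± 0.13). None of the 7 adipocyte markers had enough counts to be tested.

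Of the 12 atrial markers 6 were called in opposite directions at the 2 ages and 3 rose at both. With Nppa, which stressed ventricle also makes, the list summed to 249.7 and 248 CPM in control and 661 and 649.8 CPM in KO at 3w. Without it, the list summed to 146 and 147 CPM in control and 71.1 and 73.0 CPM in KO at 3w, and to 56.7 and 58.3 CPM in control and 462 and 467 CPM in KO at 1w. Bmp10, a growth factor of atrial muscle, was at 19.7 and 20.8 CPM in control and 0.0353 and 0.105 CPM in KO at 3w. At 3w 6 of the 12 fell and 4 rose. The share of atrial tissue in each preparation was not measured, and its part in other results was not tested.

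**Figure D5:**
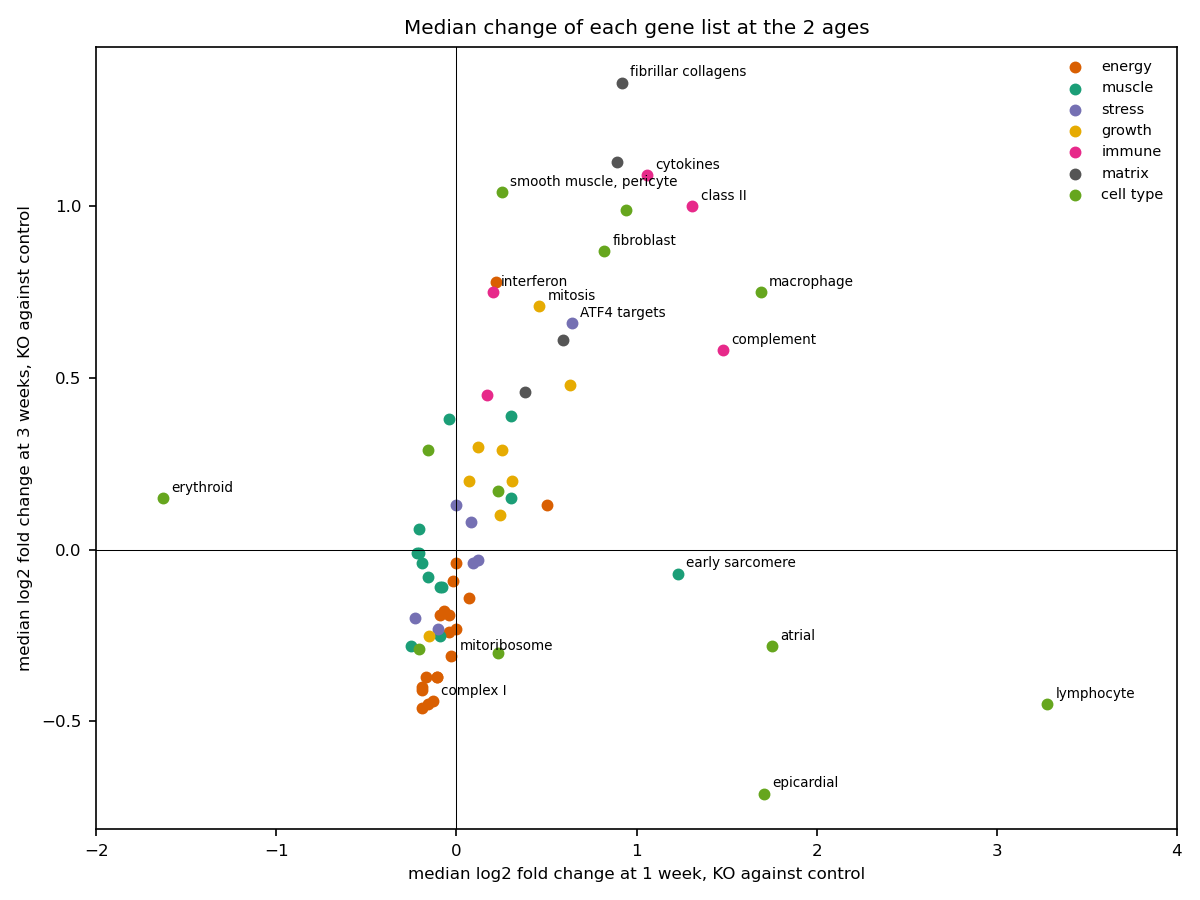
Median log2 fold change of KO against control for each gene list of at least 5 tested members at 1w (x) and 3w (y), coloured by theme. Matrix, immune and fibroblast lists are above 0 at both ages, respiratory lists are below 0 and further from it at 3w, and the atrial and epicardial lists are above 0 at 1w and below it at 3w.

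Several of the largest changes belong to none of these groups. Among rises, Klhdc7a, a kelch protein, was at 4.70 and 3.53 CPM in control and 18.3 and 16.9 CPM in KO (2.06 ± 0.10), the epoxide hydrolase Ephx1 at 8.89 and 8.20 CPM in control and 34.5 and 37.2 CPM in KO (2.06 ± 0.073), Fam198b at 10.3 and 11.3 CPM in control and 41.1 and 43.6 CPM in KO (1.98 ± 0.061) and Trim47, a ubiquitin ligase, at 5.41 and 6.01 CPM in control and 21.01 and 20.7 CPM in KO (1.88 ± 0.087). All 4 had risen less at 1w, with log2 fold changes of 0.30 to 0.78. Clasp1, which stabilises microtubule ends, was among the largest gains in CPM, at 393 and 387 CPM in control and 593 and 586 CPM in KO (0.60 ± 0.030), and had fallen at 1w (-0.44 ± 0.030). Popdc2, a cAMP-binding membrane protein of heart, was at 509.8 and 508 CPM in control and 701 and 695 CPM in KO (0.46 ± 0.030), and the kinase Wnk1 at 526 and 543 CPM in control and 699 and 710.0 CPM in KO (0.40 ± 0.030). Among falls, Gcnt1, which branches O-glycans, was at 35.1 and 37.5 CPM in control and 3.78 and 4.39 CPM in KO, and Zfp30, a zinc finger repressor, at 23.4 and 23.7 CPM in control and 7.13 and 7.22 CPM in KO (-1.71 ± 0.086).

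Over all genes, 1582 rose at both ages, 44.2% of those that rose at 3w and 46.9% of those that rose at 1w, and 1447 fell at both, 39.8% and 49.4%. A further 453 rose at 3w and fell at 1w (12.7% of those that rose at 3w), and 462 fell at 3w and rose at 1w (12.7%). The difference between the effects was called upward for 2587 genes (17.6%) and downward for 2628 (17.9%). Age and Y-linked transcripts cannot be told apart in that difference.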

How the data were processed

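RNA of cardiomyocytes was sequenced from SMART and Nextera XT libraries, per the labels' protocols. The authors deposited whole-number counts per gene, with no normalization. The submitters' processing notes name FastQC, MultiQC, HISAT2, featureCounts, DESeq2 and the build mm10, with no roles; no source used here states the strand setting or the handling of reads shared by gene copies. Gene names come from GENCODE M21 for 54723 of 54752 identifiers.

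Counts were filtered with filterByExpr (minimum count 10), scaled by TMM (factors 0.759 to 1.23) and fitted in edgeR 4.0.16 (R 4.3.3, limma 3.58.1) by the quasi-likelihood test over all 8 libraries in 4 groups, which leaves 4 residual degrees of freedom. The spread is thus estimated over both ages. P-values are 2-sided and adjusted by Benjamini-Hochberg over 14665 genes, with a threshold of 0.05. CPM values use the scaled library sizes, and levels per kilobase divide them by annotated exon length. At 3w the scaling factors were 0.782 and 0.759 in control and 0.917 and 0.916 in KO. The fold changes at 3w, and their median over all genes, therefore depend on this scaling. The script was tested on simulated data.

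The lists and the members named were chosen with earlier results of these data known. The genes named are up to 4 called members of each list with the largest change and a mean of at least 5 CPM, and the largest changes over all genes; Ifit1, Ifit3, Isg15, Hspb7, Dnajb5, Hspd1, Hspe1, Myh7, Ldha, Dgat1 and Abhd5, and members given only as called or not, were added after their values were seen. Of 1363 genes in the lists 117 were not tested, and 59 of these were listed at 0 in all 8 libraries. The cause was not tested.

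The replicates of a group differed by more than counting noise (chi-square per gene 6.89 in control and 1.68 in KO at 3w). The common coefficient of variation in the fit was 3.03%, and this spread may be technical. Same-numbered libraries of control and KO at an age share an injection day in the labels, but did not deviate together (correlation -0.016 at each age); the test had no block, and blocks were run as alternatives. Alternatives were another scaling, filter and tool, the 3w libraries alone, nuclear genes alone, replicate blocks and leaving out each library. Some genes are not reported here.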

Additional observations from a re-analysis of the deposited data

Results flagged for a closer look

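The edgeR test of the difference between the effect of KO at 3w and that at 1w was used to pick genes. Among called genes with a mean of at least 10 CPM, the 8 largest differences in each direction were taken. The 13 of these genes with at least 10 counts in each group are given, and those with fewer were not replaced. Values are differences on the log2 scale, 3w less 1w. The Y-linked transcripts also moved in opposite directions at the ages, so that age and Y-linked transcripts cannot be told apart here.

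Upward differences were 5.95 (1.86 at 3w and -4.10 at 1w; adjusted p = 5.9e-44) for Stbd1, a glycogen-binding protein, and 4.02 (3.28 at 3w and -0.74 at 1w; adjusted p = 4.7e-27) for Tnni1, the slow skeletal troponin I. Map1a, a microtubule-associated protein, differed by 3.32 (3.36 at 3w and 0.04 at 1w; adjusted p = 1.4e-32). Ankrd1, the stretch-induced repressor, differed by 2.59 (2.44 at 3w and -0.15 at 1w; adjusted p = 5.2e-52) and Fbn2, the fibrillin of early elastic fibres, by 2.52 (2.10 at 3w and -0.42 at 1w; adjusted p = 4e-23). Plekhh1 differed by 2.42 (1.30 at 3w and -1.12 at 1w; adjusted p = 8.7e-25). Nr4a3, an immediate early receptor, differed by 2.40 (0.00 at 3w and -2.40 at 1w; adjusted p = 4.6e-15), with nearly all of the difference at 1w. Gapdh differed by 2.62 (2.53 at 3w and -0.09 at 1w; adjusted p = 0.028), and copies of this gene elsewhere in the genome leave its count uncertain.

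Downward differences were -6.45 (-2.89 at 3w and 3.56 at 1w; adjusted p = 2.8e-47) for Myl7 and -5.05 (-1.76 at 3w and 3.30 at 1w; adjusted p = 6.2e-49) for Myl4, the atrial light chains. C3, the central complement protein, differed by -3.50 (-0.50 at 3w and 3.00 at 1w; adjusted p = 1.5e-38). Gm6969, a predicted gene, differed by -3.71 (-0.11 at 3w and 3.60 at 1w; adjusted p = 1.1e-42) and the potassium channel Kcnj14 by -3.36 (0.24 at 3w and 3.59 at 1w; adjusted p = 3.6e-17). The last 2 passed at 3w by edgeR and not by DESeq2.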

How the results depend on the processing

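Of the alternatives tried for the 7212 calls at 3w, the count lay between 6638 and 7242 with the 3w libraries alone, relative log expression size factors, nuclear genes alone, no count filter and a minimum count of 50. It was 5308 by DESeq2. Leaving out each library gave 6020 to 6613 calls; without KO replicate 1, 2 of the 7212 genes changed direction, and without KO replicate 2, 1 did. The 6305 calls at 1w became 4043 by DESeq2, and the 5215 calls for the difference between the ages became 3351; the cause was not tested. Replicate blocks by injection day and by replicate number gave 7208 and 7106 calls at 3w, 6294 and 6172 at 1w and 5209 and 5073 for the difference. The labels give same-numbered libraries of an age the same injection day, and neither block moved a count by over 1.5 times. Of 278 named genes, none of those called at 3w changed direction. Changes of sign in named genes that were not called were not counted. Those that lost their call were Cox8b, mt-Nd4l, Gm6969, Prmt9, Prmt3, Timm9, Kcnj14, H2-D1, Mcm4 and Pcna, each under at least 1 alternative. Medians of 4 lists near 0 changed sign under some alternatives: phosphagen transfer, cardiac transcription factors, arginine methyltransferases and early sarcomere isoforms. With 2 libraries a group, genes of low count are the least certain.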
